A study of Caenorhabditis elegans with 2 samples.

Results

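The genes described here are the nuclear hormone receptor genes of Caenorhabditis elegans, taken as every protein-coding gene of the WBcel235 annotation whose name begins with nhr-. There were 269 of them among 19985 protein-coding genes, and 167 lay on chromosome V, 33 on IV, 23 on I, 23 on X, 15 on II and 8 on III. The question asked of each gene was whether PAX-1, a paired-domain protein that binds DNA, gave a peak near its start in late embryos. Sequences bound by the protein were recovered by ChIP-seq, in which crosslinked chromatin is pulled down with an antibody and sequenced, from whole worms of strain OP117, which carries the unc-119(ed3) allele on chromosome III and the insertion wgIs117 with eGFP-tagged pax-1. Both sexes were pooled, the stage was late embryonic with the age unknown, and both replicates carried the same alleles. There was thus 1 group with 2 biological replicates and no untagged group. The labels do not say which cells held the tagged protein.

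Nuclear hormone receptors are transcription factors that pair a zinc finger DNA-binding domain with a ligand-binding domain, and many switch target genes on or off when a small lipophilic molecule binds. In C. elegans the family grew far beyond that of flies or mammals, largely from an ancestor like HNF4, and many of the added genes sit in tandem groups on chromosome V. Known members govern molting, fat metabolism, sterol and toxin responses, and the development of epidermis and nerve cells.

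The authors' lists on the ce11 build held 30000 peaks for replicate 1, 29397 for replicate 2 and 30000 for both pooled. The authors labelled these lists as peaks and background, so an entry in them, called a peak here, need not mark a bound site. Their thresholded list held 714 peaks, all of them the highest of the pooled list. A gene was given a peak when the summit lay within 1000 bp of any of its transcript starts. The signal of a peak is the authors' own value on a scale not given, so it ranks peaks within a list and is not compared between lists. The files hold no read counts, so depth is unknown, and since the 2 replicates form 1 group no test was run and shares are given beside those of all genes.

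Few nhr genes had a thresholded peak. There were 5 of 269 (1.86%), while 3.55% of all protein-coding genes had one. On chromosome V the share was 4 of 167 (2.40%) against 2.00% of all genes there, close to its background. On the other chromosomes together it was 1 of 102 (0.980%) against 4.06%. The highest peaks of the replicates, given after the 5 genes, kept this order between V and the rest in neither replicate. The 5 genes were nhr-183, nhr-44, nhr-62, nhr-58 and nhr-228, and their summits lay in intergenic sequence from 3 to 270 bp upstream of a start. All 5 peaks were 344 bp wide.

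The highest of them belonged to nhr-183 (WBGene00018266, chromosome V, 2262489 to 2264634, minus strand). Its peak, from 2264519 to 2264862, had a pooled signal of 93.4 and pooled rank 204, with the summit 57 bp upstream of the start. The overlapping peaks ranked 178 in replicate 1 and 457 in replicate 2, with signals of 63.0 and 29.9. It was the 1 nhr gene whose peak stood among the 714 highest of both replicates.

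The second was at nhr-44 (WBGene00003634, chromosome V, 8961878 to 8964105, minus strand), with a signal of 78.9 at rank 314. The peak ran from 8964146 to 8964489, with its summit 213 bp upstream of the start. Its overlapping peak ranked 144 in replicate 1 and 4540 in replicate 2. The replicates thus placed this peak far apart in their lists.

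The peak of nhr-58 (WBGene00003648, chromosome V, 532259 to 534070, plus strand) ran from 532084 to 532427, with a signal of 64.1 at rank 561. Its summit was 3 bp upstream of the start. It ranked 263 in replicate 1 and 7515 in replicate 2. The peak of nhr-228 (WBGene00020852, chromosome V, 2281759 to 2284963, plus strand) ran from 2281527 to 2281870, with a signal of 63.0 at rank 588 and a summit 60 bp upstream. Here the replicates were close, at ranks 929 and 822, and neither reached its own 714 highest. The start of fbxa-137, an F-box gene, lay 706 bp from the same summit, and the other 4 summits had no other protein-coding start within 1000 bp.

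The sequences under these 4 summits on chromosome V are shown because they are the nhr promoters that passed the authors' threshold. Each is read 5′ to 3′ along the gene's strand from the RefSeq sequence of WBcel235. Each covers 75 bp on either side of the summit without the bases annotated as untranslated region. Capitals mark the hexamers searched, which were AGGTCA (the core site of many nuclear receptors), TCACGC (the core shared by paired domain sites), the hexamer AGAGAC, the hexamer CGTCTC and the hexamer GCGCGC, on both strands. AGAGAC reads GTCTCT on the opposite strand and there overlaps CGTCTC in 5 bases, so the run CGTCTCT holds both.
nhr-183, chrV:2264635-2264766, minus strand: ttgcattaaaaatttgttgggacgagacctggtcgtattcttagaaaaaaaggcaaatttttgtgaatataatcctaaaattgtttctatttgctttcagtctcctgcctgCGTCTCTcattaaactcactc
nhr-44, chrV:8964243-8964393, minus strand: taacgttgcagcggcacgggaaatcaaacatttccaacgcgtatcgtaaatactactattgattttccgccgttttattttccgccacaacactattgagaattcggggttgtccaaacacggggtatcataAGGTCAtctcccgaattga
nhr-58, chrV:532181-532258, plus strand: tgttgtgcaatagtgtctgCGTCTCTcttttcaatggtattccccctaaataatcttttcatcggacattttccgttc
nhr-228, chrV:2281624-2281758, plus strand: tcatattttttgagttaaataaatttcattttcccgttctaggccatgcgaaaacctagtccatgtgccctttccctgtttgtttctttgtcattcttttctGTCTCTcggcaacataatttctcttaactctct

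The nhr-183 and nhr-58 windows hold CGTCTCT along the gene's strand, nhr-228 holds GTCTCT without the leading base, and nhr-44 holds AGGTCA and neither of these. None of the 4 holds TCACGC or GCGCGC, which says only that these letters are not in these windows. Over 713 windows of all thresholded peaks, AGAGAC was in 30.3%, CGTCTC in 27.6%, AGGTCA in 6.17%, TCACGC in 6.31% and GCGCGC in 13.3%. Although nhr-183 and nhr-228 belong to the same tandem group, their full windows of 151 bp shared 92 bases in a global alignment (60.9%). The 6 pairs among the 4 windows, read along their genes, ran from 57.0% to 62.3%, so no pair stood apart as a copy of another. With the windows of a pair in opposite orientation the values ran from 48.3% to 58.9%. All words of 31 bases in these peaks occur once in the genome.

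The fifth gene, nhr-62 (WBGene00003652), was the 1 thresholded member outside chromosome V and is a receptor needed for the longer life span of worms on a restricted diet. It lies on chromosome I from 9839598 to 9844809 on the plus strand. Its peak, from 9839156 to 9839499, had a signal of 64.8 at rank 543, with the summit 270 bp upstream of a start. Its overlapping peak ranked 249 in replicate 1 and 5773 in replicate 2.

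Read over the 5 genes, replicate 1 placed 4 peaks among its 714 highest and replicate 2 placed 1. In replicate 1 the authors' −log10 q of the overlapping peaks was 2.79 at nhr-228 and 3.15 at the others. In replicate 2 it was 1.22 at nhr-183, 0.712 at nhr-228, 0.136 at nhr-44, 0.103 at nhr-62 and 0.0789 at nhr-58. Taking the 714 highest peaks of each replicate in place of the thresholded list gave 5 nhr genes in replicate 1 (1.86%, against 3.45% of all genes) and 4 in replicate 2 (1.49%, against 3.35%). In replicate 1 these were nhr-183, nhr-44, nhr-58, nhr-62 and nhr-34, and in replicate 2 nhr-183, nhr-49, nhr-66 and nhr-104. Of the replicate 2 genes, 1 was in the thresholded list. On chromosome V replicate 1 had 3 of 167 (1.80%, against 2.24% of all genes there) and replicate 2 had 1 (0.599%, against 1.70%). On the other chromosomes they had 2 of 102 (1.96%, against 3.86%) and 3 of 102 (2.94%, against 3.90%). Neither replicate alone thus placed the chromosome V share above that of all its genes.

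The 12 nhr genes next in the pooled list had ranks from 757 to 2145 and signals from 57.1 to 37.5. The highest was nhr-34 on chromosome IV, whose intronic summit lay 164 bp upstream of a start. It ranked 468 in replicate 1 and 4909 in replicate 2, and with 5 pooled peaks nhr-34 had the most of any member. The next was nhr-212, with a signal of 52.4 and ranks of 1161 and 2638. The pooled peak of nhr-49, a regulator of fatty acid use and of the fasting response, had a signal of 49.6 at rank 1085, and its overlapping peaks ranked 2883 and 425. The peak of nhr-66, whose product works with NHR-49 on lipid genes, had a signal of 46.9 at rank 1227, and its overlapping peaks ranked 1221 and 567. Replicate 2 placed both genes higher than replicate 1 did, and likewise nhr-107, at 1373 against 2161. The other 7 were nhr-131, nhr-78, nhr-104, nhr-154, nhr-256, nhr-2 and nhr-65. Of these, nhr-131 and nhr-78 had no overlapping peak in replicate 2 and nhr-2 had none in replicate 1, while nhr-104 ranked 8768 in replicate 1 and 298 in replicate 2. For nhr-154, nhr-256 and nhr-65 replicate 1 ranked the peak higher, at 841, 922 and 1549 against 4710, 9216 and 27625.

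**Figure D1:**
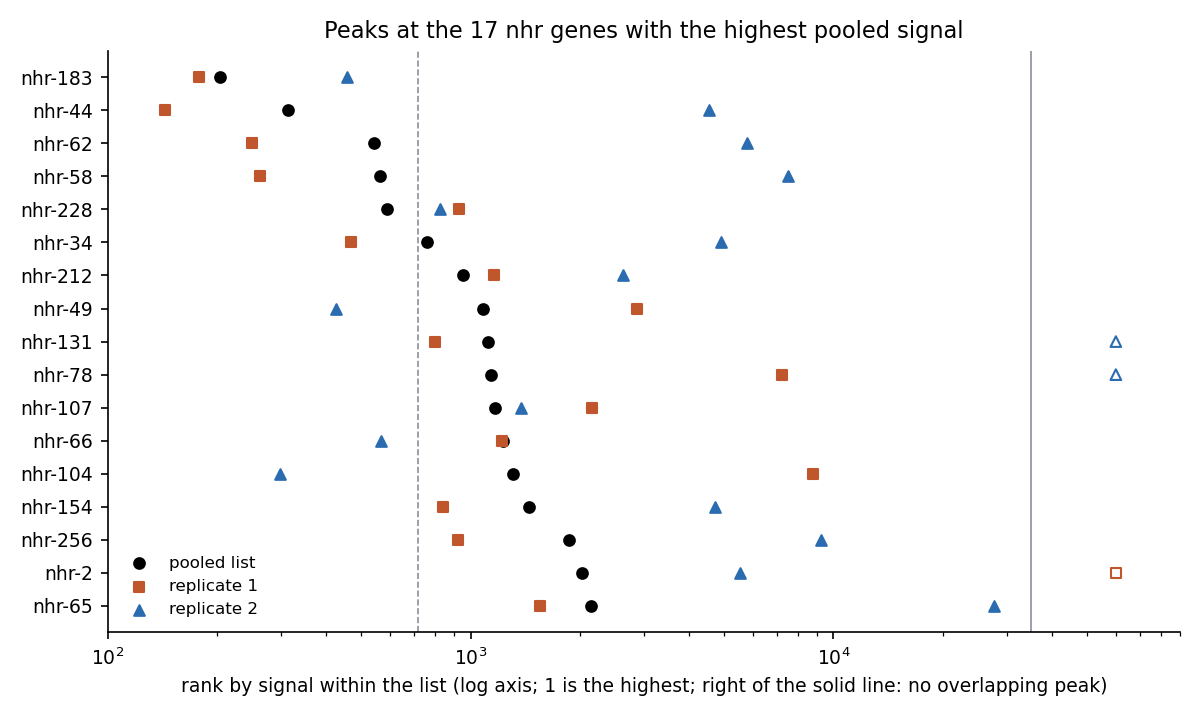
Rank by signal (horizontal log axis, 1 is the highest) of the peak at each of the 17 nhr genes with the highest pooled signal, in the pooled list (circles), replicate 1 (squares) and replicate 2 (triangles). The dashed line is rank 714, open symbols on the right are genes with no overlapping peak in that replicate, and only nhr-183 has all 3 symbols left of the dashed line.

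Most peaks at nhr genes were weak. With the whole pooled list, background included, 151 of 269 nhr genes (56.1%) had a peak, against 52.6% of all protein-coding genes. Replicate 1 gave 146 (54.3%, against 52.2%) and replicate 2 gave 151 (56.1%, against 53.5%), all near the background. The median signal of the highest peak at these 151 genes was 22.3, against 23.6 over all genes with a pooled peak, and the median pooled rank was 11724 against 9960. Among genes with a single transcript start the order turned, with 46.1% of nhr genes and 47.0% of all genes. The difference of 3.58 percentage points was 0.732 with starts within 500 bp, 0.889 within 2000 bp and 6.89 with each summit given to its nearest start only. In the 15000 highest pooled peaks the order turned as well, with 32.3% of nhr genes and 34.5% of all genes. Genes with a peak in both replicates made up 35.3% of nhr genes and 35.9% of all genes. A total of 67 of 269 nhr genes had none in either replicate, against 6042 of all 19985 protein-coding genes.

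The 234 pooled peaks at nhr genes were placed around starts much like those at other genes. Their summits lay upstream in 60.3% of cases and at a median distance of 410 bp, against 58.9% and 377 bp for all 13602 pooled peaks at protein-coding genes. A second protein-coding start lay within 1000 bp of 29 of the 234 summits (12.4%), against 16.1%. Of the 234 peaks, 78 (33.3%) overlapped a peak in both replicates, against 40.3% of all those at genes. No overlapping peak in either replicate was found for 16 of the 234, against 1132 of the 13602. By rank, nhr genes held 1.02% of the gene-linked peaks in ranks 1 to 714, 1.36% in ranks 715 to 3000, 1.80% in ranks 3001 to 10000, 1.47% in ranks 10001 to 20000 and 2.13% in ranks 20001 to 30000. Of the 151 genes, 86 had 1 pooled peak, 46 had 2, 17 had 3, and 1 each had 4 and 5. Over 1 peak was thus found at 65 of the 151, against 3777 of the 10503 protein-coding genes with a pooled peak. The nhr genes had a mean of 1.70 transcript starts, against 1.49 over all genes.

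**Figure D2:**
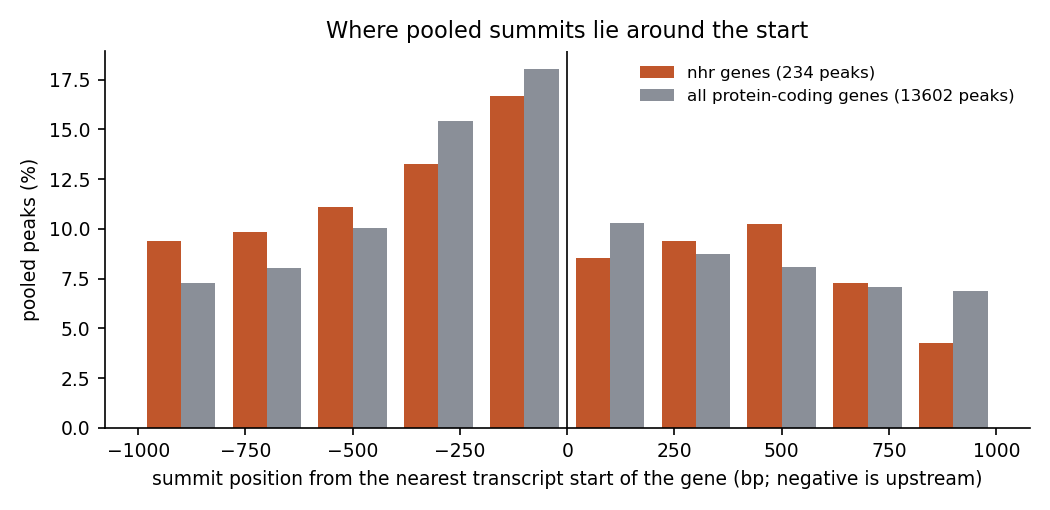
Position of pooled summits (horizontal axis, bp from the nearest transcript start of the gene, negative upstream) as a percentage of the peaks of each group (vertical axis) in steps of 200 bp. For both the 234 peaks at nhr genes and the 13602 at all genes, the step just upstream of the start is the fullest, with 16.7% and 18.05%.

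The chromosomes differed in how nhr genes stood to their neighbours. On chromosome V 97 of 167 nhr genes (58.1%) had a pooled peak, against 44.1% of all genes of that chromosome. On the other chromosomes together it was 52.9% of nhr genes and 55.4% of all genes, so the background was lower on V. The nhr share on V was 58.7% in replicate 1, against 43.7%, and 55.7% in replicate 2, against 45.9%. The difference of 13.95 percentage points in the pooled list was 7.55 in its 15000 highest peaks and 0.556 in its 3000 highest. The shares there were 32.3% against 24.8% and 7.78% against 7.23%, and fewer peaks give smaller shares by construction. By rank, nhr genes held 6.06% of the peaks at genes of V in ranks 1 to 714 and 4.31% in ranks 715 to 3000. Their part was 5.41% in ranks 3001 to 10000, 4.13% in ranks 10001 to 20000 and 6.36% in ranks 20001 to 30000. On chromosome I the nhr share was the lower one, with 8 of 23 nhr genes (34.8%) and 60.5% of all genes. Replicates 1 and 2 gave 34.8% and 30.4% there, against 59.3% and 60.3%. In the run of chromosome I members from nhr-74 to nhr-169 (11429014 to 12443780), only nhr-89 and nhr-169 had a pooled peak. They shared it, at rank 24665. The other chromosome I members with one were nhr-64, nhr-2, nhr-23, nhr-62, nhr-49 and nhr-276. On IV the pooled share was 66.7% against 52.5%, but replicate 1 had 48.5% against 51.9%. On X it was 56.5% against 53.1%. On II it was 46.7% against 48.6%, where both replicates had the nhr share above that of all genes, and on III 4 of 8 against 64.3%, with 1 gene in replicate 1 and 6 in replicate 2. None of these differences was tested.

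**Figure D3:**
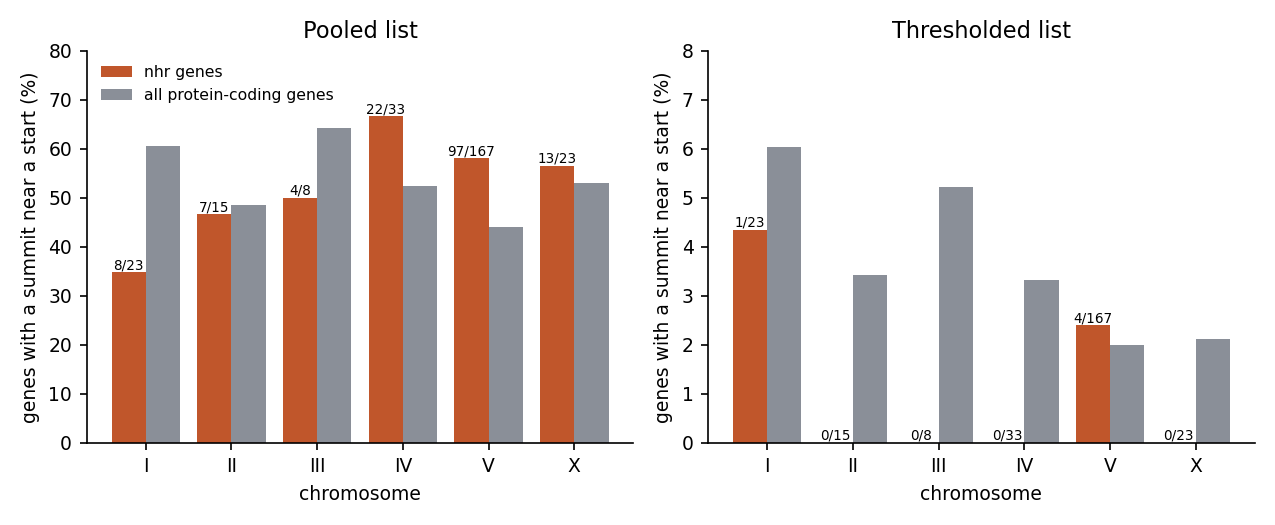
Percentage of genes with a summit within 1000 bp of a transcript start (vertical axis) by chromosome, for nhr genes (orange, with counts) and all protein-coding genes (grey), in the pooled list (left) and the thresholded list (right). On chromosome V 58.1% of nhr genes and 44.1% of all genes had a pooled peak, a difference of 13.95 percentage points that was 0.556 in the 3000 highest peaks, and on I the nhr share was the lower one.

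On chromosome V the windows around nhr starts also differed from those of all genes in other ways. The nhr genes of V had a mean of 1.56 transcript starts, against 1.41 over all genes of V. Thus 1000 bp around their starts covered 2183 bp a gene against 2003. Per length, their windows held 38.1 pooled summits per 100 kb, against 26.4 around all starts of V. Among genes with a single start the shares were 50.5% and 39.8%. Words of 31 bases that occur once in the genome made up 96.5% of the nhr windows and 92.8% of all windows on V, and G+C was 34.5% against 35.3%. The part of uniqueness and of base composition in the difference was not tested.

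The nhr genes of chromosome V were then divided by place. The chromosome was cut into 3 sections of equal length. In the left section 48 of 78 (61.5%) had a pooled peak, in the middle section 23 of 41 (56.1%) and in the right section 26 of 48 (54.2%). Over all genes of these sections the shares were 45.0%, 46.5% and 40.7%. Of the 4 thresholded genes, 3 were in the left section (3.85%, against 2.32% of all genes there). The middle section held 1 (2.44%, against 1.95%) and the right section 0 (against 1.77%). These counts are too small to set the sections apart.

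A cluster was taken as a run of at least 4 nhr genes with no gap over 50 kb between neighbours. By that rule 14 clusters held 107 nhr genes in 754 kb, or 3.60% of the chromosome. All 4 thresholded genes of chromosome V were cluster members (3.74% of 107), and 1 of 135 other genes in the same stretches (0.741%) had one. That gene was fbxa-137, through the nhr-228 peak itself, so no thresholded summit in the stretches lay near other genes alone. Among the 714 highest peaks of replicate 1 there were 3 cluster members (2.80%), against 0.741% of the other genes there and 2.24% of all genes of V. Among those of replicate 2 there was 1 (0.935%), against 0 of the other genes there and 1.70% of all genes of V. A pooled peak was found at 60 of 107 cluster members (56.1%), against 43.0% of the other genes there. The shares were 57.9% and 40.7% in replicate 1 and 58.9% and 41.5% in replicate 2. Among genes with a single transcript start, the pooled shares were 47.1% of 70 members and 38.2% of 110 other genes. The median signal of the highest pooled peak was 22.3 for the 60 members and 19.3 for the 58 other genes. The stretches as a whole held 26.9 pooled summits per 100 kb, against 24.4 on all of chromosome V. Outside clusters 37 of 60 nhr genes (61.7%) had a pooled peak and 0 had a thresholded one, against 44.1% and 2.00% of all genes of V.

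The clusters varied. In 7 of the 14 a higher share of nhr genes than of other genes had a pooled peak, in 6 a lower share, and 1 held no other gene. A thresholded gene was found in 3. The 2 largest had 19 members each. In the first, from nhr-254 to nhr-155 (392628 to 541485), 13 of 19 members and 10 of 29 other genes had a pooled peak. Its highest members were nhr-58, nhr-212 and nhr-131, while its first 3 members, nhr-254, nhr-253 and nhr-252, had no peak in any of the lists. In the other, from nhr-13 to nhr-226 (2192485 to 2296977), 10 of 19 members had one, as did 10 of 17 other genes. There nhr-183 and nhr-228 stood at ranks 204 and 588, and nhr-182, the neighbour of nhr-183, stood at rank 3225. The nhr-44 cluster (8961878 to 8974939) had 4 members, and nhr-44 was its 1 member with a pooled peak, while 3 members had a peak in replicate 1 and 2 in replicate 2.

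Clusters without a thresholded gene also differed. From nhr-206 to nhr-136 (12092006 to 12109313), 6 of 7 members had a pooled peak, the highest at nhr-154. From nhr-178 to nhr-238 (1603906 to 1629432) it was 6 of 7 as well, with the highest at rank 7177. From nhr-161 to nhr-42 (6980587 to 7000651) it was 3 of 7, led by nhr-107 at rank 1169. The right-hand cluster from nhr-231 to nhr-243 (18790958 to 18900537) had 4 of 5, with nhr-65 and nhr-243 at ranks 2145 and 2593, but all 11 other genes there had one too. From nhr-246 to nhr-269 (15316477 to 15369807) 0 of 4 members had a pooled peak, against 3 of 13 other genes. At the nhr-243 summit 71.5% of the words of 31 bases occur once in the genome, the lowest share among the nhr peaks named by rank.

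**Figure D4:**
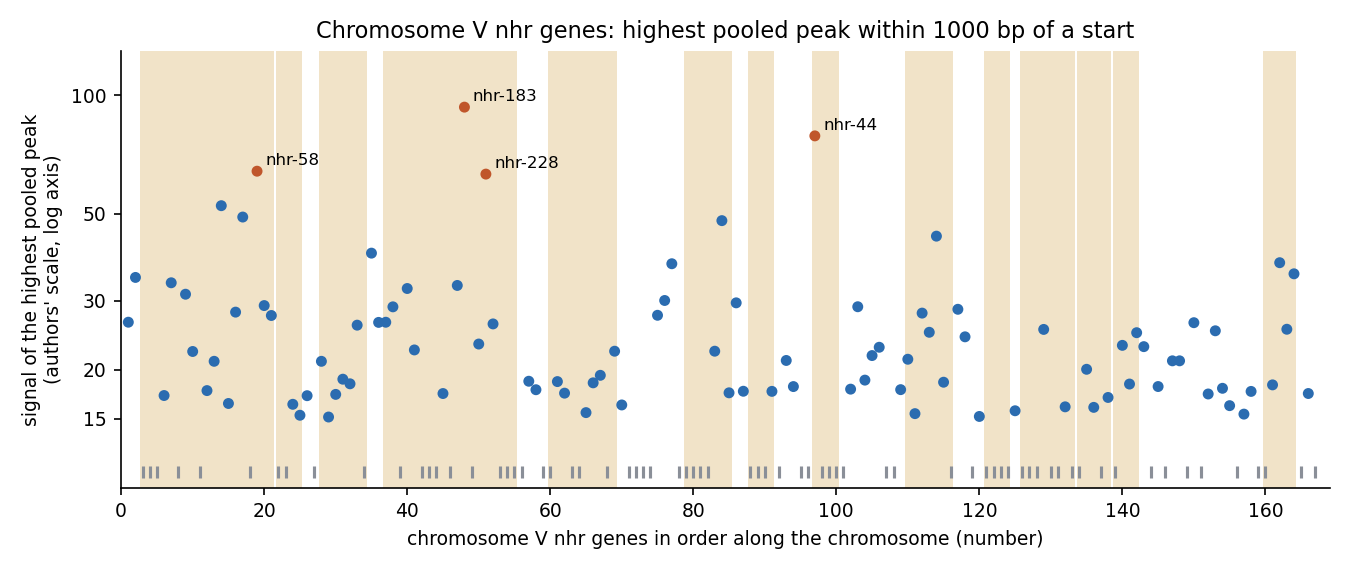
Signal of the highest pooled peak within 1000 bp of a start (vertical log axis, authors' scale) for the 167 nhr genes of chromosome V in their order along it (horizontal axis), with thresholded genes in orange and the 14 clusters shaded. Grey ticks are the 70 genes with no pooled peak, and all 4 orange points lie in shaded clusters.

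The hexamer AGAGAC was more common at chromosome V nhr peaks than at other peaks of that chromosome. Of 139 summit windows at its nhr genes, 19 (13.7%) held it, against 5.42% of 2526 windows at genes of V that are no nhr gene and 6.90% at all protein-coding genes. In cluster members it was 14 of 90 (15.6%). Mean G+C of the windows was 32.4%, and 32.6% for all peaks at genes of V. The median signal was 27.3 for the 19 windows with the hexamer and 18.8 for those without it. For the other genes of V these medians were 24.03 and 20.1. Within chromosome V the difference at nhr genes was found in cluster members, with 30.1 and 19.1. Outside clusters the medians were 18.1 with the hexamer, in 5 windows, and 18.4 without. At nhr genes of the other chromosomes they were 34.4 with it, in 7 windows, and 20.3 without. Over all protein-coding genes they were 26.1 and 20.9. The nuclear receptor core site AGGTCA was in 2.88% of the chromosome V nhr windows and in 3.06% of all windows at genes of V, and TCACGC in 2.88% and 2.00%. AGAGAC was searched with earlier results of these data known, so these contrasts by peak and signal are no independent support for it.

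The same hexamer was counted in promoters, from 250 bp before to 50 bp after each transcript start, whether or not a peak was there. It was in the promoters of 36 of 107 cluster members (33.6%), 12 of 60 other nhr genes of V, 21.6% of nhr genes elsewhere, 15.5% of the remaining genes of V and 17.3% of all protein-coding genes. Among cluster members with a pooled peak 28 of 60 (46.7%) had it, and among those without 8 of 47 (17.0%). Among the remaining genes of V these shares were 17.8% and 13.8%. Since genes with more starts have more promoter sequence, the count was repeated for genes with a single start. There it was 13 of 33 cluster members with a peak (39.4%) and 7 of 37 without (18.9%), and 13.8% and 12.3% of the remaining genes of V. Tandem copies share ancestry, so these members are not independent, and none of these shares was tested. Both the hexamer and these counts were chosen with results of these data known.

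**Figure D5:**
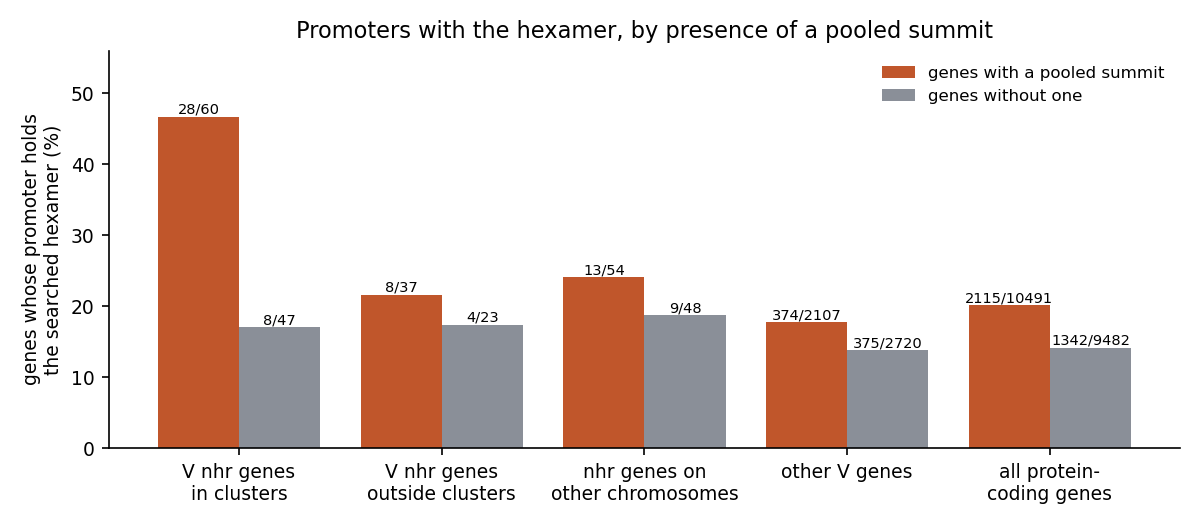
Percentage of genes whose promoter holds the hexamer (vertical axis) for genes with a pooled summit within 1000 bp (orange) and without one (grey), with counts, in 5 groups of genes. In chromosome V cluster members the shares are 46.7% and 17.0%, and in all protein-coding genes 20.2% and 14.2%.

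Well-studied receptors were looked up by name. Their pooled ranks come from a list that includes background. The authors' −log10 q of the pooled peak was 1.85 at nhr-62, 1.45 at nhr-49, 0.640 at nhr-2 and 0.0267 at nhr-35. Of 27 such nhr genes 17 (63.0%) had a pooled peak, against 134 of the other 242 (55.4%), and 1 had a thresholded peak, nhr-62. Their median highest signal was 29.4, against 21.2 for the others. The well-studied genes had more transcript starts on average than the others, from 1 at nhr-2 to 7 at nhr-66. More starts cover more sequence, and the part of this in both differences was not tested. The lipid regulators nhr-49 and nhr-66 are given above, and nhr-64 ranked 2427. Further partners of NHR-49 differed, as nhr-13 ranked 6767 and nhr-80, a regulator of fatty acid desaturases, had no peak in any list. Of the molting regulators, nhr-23, the counterpart of mammalian ROR, ranked 9138, and nhr-25, the counterpart of Ftz-F1 and SF-1, ranked 24218. The toxin and sterol response gene nhr-8 ranked 21080, nhr-48, a relative of nhr-8 and daf-12, ranked 2803, and nhr-41, the counterpart of TR2 and TR4, ranked 13348. The counterpart of GCNF, nhr-91, ranked 4571, nhr-31, which acts in the excretory cell, ranked 4629, and nhr-2, expressed in early embryos, ranked 2022. The ranks of nhr-40, nhr-86, nhr-88 and nhr-35 were 3055, 6795, 8356 and 28941. No pooled peak was found at nhr-6, the counterpart of the NR4A receptors, at nhr-67, the counterpart of tailless, or at nhr-85, the counterpart of Rev-erb. Of these, nhr-6 and nhr-67 had a weak peak in replicate 2, at ranks 16964 and 28342. The others with no pooled peak were nhr-14, nhr-60, nhr-69, nhr-111, nhr-114 and nhr-239.

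Receptor genes with other names had no thresholded peak. Of 5, pooled peaks were found at fax-1, a gene of interneuron identity, and daf-12, the receptor for the dafachronic acid hormones, at ranks 13503 and 22285, and none at odr-7, sex-1 or unc-55. Among 14 genes for cofactors, ligand enzymes and partner proteins, 11 had a pooled peak and 3 a thresholded one, against backgrounds of 52.6% and 3.55%. These 3 were hsp-90, the chaperone that holds steroid receptors ready for ligand in mammals, at rank 79, cbp-1, the coactivator acetyltransferase, at rank 295, and dhs-16, an enzyme of dafachronic acid synthesis, at rank 443. Their overlapping or nearby peaks ranked 50 and 279 for hsp-90, 337 and 199 for cbp-1, and 254 and 8382 for dhs-16 in replicates 1 and 2. A start of C47E8.4 was also within 1000 bp of the hsp-90 summit. The corepressor gene din-1 ranked 1280, the SUMO gene smo-1 ranked 1098 and mdt-15, a Mediator subunit that works with NHR-49, ranked 12879. Of 14 annotated target genes of these receptors, 7 had a pooled peak, 0 had a thresholded one, and the highest was hacd-1 at rank 4866. The desaturase gene fat-7 ranked 20453, and its relatives fat-5 and fat-6 had no peak in any list.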

How the data were processed

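Per the deposited listing, the authors made a list of peaks and background per replicate and one from both alignments. These were input to the irreproducible discovery rate procedure, and a thresholded list was made from them. The inputs include a further file whose kind the listing does not say; the labels name a possible control. The aligner, the caller and the cutoff were not given in the sources used. Signal (column 7) and −log10 q (column 9) are the authors' values. The ce10 lists were left out. Genes came from Ensembl 115 and bases from RefSeq, both for WBcel235, which is ce11. Value columns matched to no sample or pool numbered 0.

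Members, the lists, the motifs searched and which genes to name were chosen with earlier results of these data known. Named were thresholded nhr genes, the 12 next by pooled signal, the well-studied list, thresholded genes of the other lists and cluster members among the 3000 highest pooled peaks; others were chosen after their values were seen. Of 18 target genes listed, 14 matched a protein-coding name. A gene's rank is that of its highest peak; replicate ranks for named peaks are of the highest overlapping peak (at least 1 bp), or, for list genes, of the highest within 1000 bp. The nearest-start and cluster rules were tested on simulated data. Counts of the hexamer in promoters were chosen after seeing the data. Alternatives were other distances, nearest start only, either replicate alone, the 357 and 15000 highest peaks, other cluster gaps and a larger overlap. Tools were biopython 1.88 for alignment, matplotlib 3.10.9, pandas 2.3.3, numpy 2.4.6 and Python 3.11.15.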

Additional observations from a re-analysis of the deposited data

How the results depend on the processing

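Of 59 recomputed values, 2 reversed and 10 counts or differences moved past the limits used. The other 47 kept their direction, though not always their size: the pooled difference from all genes was 0.732 to 6.89 points under other start rules, the thresholded one was -1.69 and became -0.518 with the nearest start only, and the chromosome V difference was 7.55 in the 15000 highest peaks. The 5 thresholded nhr genes became 8 with starts within 2000 bp and 2 in the 357 highest thresholded peaks, and 4 to 5 with either replicate alone. In the 15000 highest pooled peaks, which holds fewer peaks by construction, 87 nhr genes, 54 on chromosome V and 35 in clusters had a peak, and the difference from all protein-coding genes reversed from 3.58 to -2.16 percentage points. In the 3000 highest, an alternative chosen after seeing the data, these counts were 23, 13 and 10, that difference was -3.39 and the chromosome V difference fell from 13.95 to 0.556. The cause was not tested. Either replicate alone gave pooled differences of 2.08 to 2.67 points over all chromosomes, 9.83 to 15.03 on V and 17.2 to 17.4 in clusters. Asking for an overlap of 50% of the peak left 3 of 5 thresholded nhr peaks present in both replicates, with nhr-44 and nhr-58 lost in replicate 2. No paired analysis was possible because there was 1 group. Without read counts, depth cannot be weighed.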

Other observations

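The hexamer AGAGAC at chromosome V nhr peaks was most common among the highest. In ranks 1 to 3000 of the pooled list 7 of 13 nhr windows held it (53.8%), against 13.4% of 262 windows at the other genes of V. In ranks 3001 to 10000 it was 4 of 30 (13.3%, against 5.71%), in ranks 10001 to 20000 1 of 36 (2.78%, against 4.79%), and in ranks 20001 to 30000 7 of 60 (11.7%, against 3.17%). The 7 were at nhr-183, nhr-58, nhr-228, nhr-212, nhr-131, nhr-256 and nhr-65, which were named for this count after their values were seen. The hexamer was itself chosen with earlier results of these data known. It was in 30.3% of all thresholded windows and 6.34% of all pooled windows, so its rise towards the highest ranks is not independent evidence.

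At the nhr genes of the other chromosomes 7 of 95 windows held the hexamer (7.37%), at the background of 7.18% of windows at all genes there. All 10 of its occurrences at these nhr genes read GTCTCT along the gene's strand. On chromosome V 13 of 22 occurrences at nhr genes did so (59.1%), and over all protein-coding genes 56.8%. The 7 windows were at nhr-62, nhr-49, nhr-1, nhr-48, nhr-119 and nhr-122, with 2 of them at nhr-1, and occurrences within a window are not independent.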
